A study of Bos taurus with 18 samples.

Results

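The genes described here encode the desaturases and elongases that act on polyunsaturated and other long-chain fatty acids in liver: FADS1, FADS2, FADS6, ELOVL1, ELOVL2, ELOVL5, ELOVL7 and SCD5. They were chosen by name. All 8 had a probe set annotated with that single symbol, out of 18010 genes with such a probe set on the array, and each had exactly 1 probe set. The values came from liver biopsies of 18 multiparous Holstein cows, taken 1 week after calving, with each cow's RNA on an array of its own (Affymetrix Bovine Gene 1.0 ST). The control cows (n = 9) ate total mixed rations based on corn and grass silage from 3 weeks before calving. The niacin cows (n = 9) ate the same rations with rumen-protected niacin, a coated form of nicotinic acid, at 79 mg per kg body weight. The labels put the amount that reaches the duodenum at 47 mg per kg and the absorbable amount at 31 mg per kg. Cows of both groups were in early lactation, so a non-lactating state was not measured. The question was which liver transcripts differed with niacin at this dose.

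The liver makes long polyunsaturated fatty acids from dietary linoleic and alpha-linolenic acid by alternating desaturation and elongation. FADS2 places the initial double bond, ELOVL5 lengthens the chain, and FADS1 places a further double bond to give arachidonic or eicosapentaenoic acid. ELOVL2, with ELOVL5, lengthens these products on the way to docosahexaenoic acid, which is completed by chain shortening in peroxisomes. In rodent liver FADS1, FADS2 and ELOVL5 are known to respond to the sterol regulatory element-binding protein SREBP-1 and to the fatty acid sensor PPARA. The other members act elsewhere: ELOVL1 and ELOVL7 lengthen mainly saturated and monounsaturated very long chains, SCD5 makes monounsaturated fatty acids as a relative of the main liver desaturase SCD, and FADS6 belongs to the desaturase family without a settled substrate.

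Values are log2 expression per probe set, so a step of 1 is a doubling. The 18 arrays correlated with each other at 0.972 to 0.990. The 25% of probe sets that were dimmest by their mean over all arrays (a mean under 4.35) were left out of the tests, and 7 of the 8 members were kept. The biopsies carried hepatocyte RNA as labelled: all 10 hepatocyte markers were on the array and past this limit, and their mean lay between 12.10 and 12.39 in control and between 12.15 and 12.36 in niacin cows.

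FADS2 and FADS1 differed between single cows far more than most liver transcripts. FADS2 lay at 9.31 at the lowest, 11.44 at the median and 12.10 at the highest in control cows, and at 6.76, 10.83 and 12.09 in niacin cows. The highest and the lowest of the 18 cows thus differed 40.5-fold. Control cows 12 and 23 and niacin cows 8, 14 and 15 were the low ones. These 3 niacin cows lay below every control cow, and the other niacin cows lay within the control range. The SD of FADS2 within groups was 1.51, where 6 of the 18250 probe sets tested had a larger one and the median was 0.20. FADS1 lay at 5.86, 7.42 and 8.29 (lowest, median and highest) in control cows and at 5.61, 7.37 and 8.97 in niacin cows. Its SD within groups was 0.97, exceeded by 40 probe sets, and niacin 3 was the highest cow. Since these are tissue samples, less RNA of a gene per cell and fewer cells that make it cannot be told apart.

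**Figure D1:**
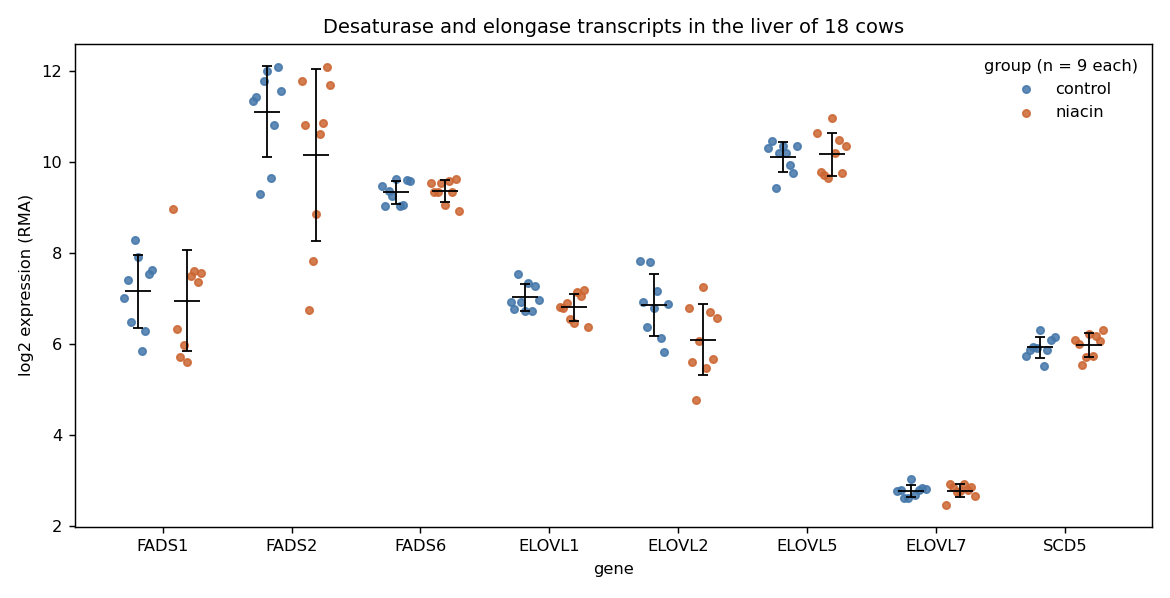
Log2 expression of the 8 genes (vertical axis) in each cow, control in blue and niacin in orange, with 9 points per group; bars show the group mean ± SD. FADS2 spans 6.76 to 12.10 over the 18 cows, while FADS6, SCD5 and ELOVL7 stay within narrow bands.

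Of the elongases of polyunsaturated chains, ELOVL2 was the more variable. It lay at 5.83, 6.89 and 7.84 in control cows and at 4.78, 6.08 and 7.25 in niacin cows, with niacin 8 the lowest and controls 1 and 16 the highest. Its SD within groups was 0.74, exceeded by 0.707% of the probe sets tested. ELOVL5 lay at 9.44, 10.21 and 10.47 in control cows and at 9.65, 10.21 and 10.97 in niacin cows, so the groups had the same median. Niacin 3, 15 and 33 lay above every control cow for ELOVL5, and its SD was 0.41.

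The remaining members were steadier. FADS6 lay at 9.03, 9.38 and 9.63 in control and at 8.93, 9.35 and 9.63 in niacin cows. SCD5 lay at 5.53, 5.92 and 6.31 in control and at 5.54, 6.08 and 6.31 in niacin cows. ELOVL1 lay at 6.73, 6.94 and 7.55 in control and at 6.37, 6.82 and 7.19 in niacin cows, with 3 niacin cows (14, 15 and 40) below every control cow. Their SDs within groups were 0.25, 0.25 and 0.30. ELOVL7 was near the bottom of the scale, at 2.61, 2.80 and 3.03 in control and 2.47, 2.80 and 2.92 in niacin cows. Only 7.8% of all probe sets had a lower mean, so ELOVL7 was left out by the limit on dim probe sets and its values carry little information.

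**Figure D2:**
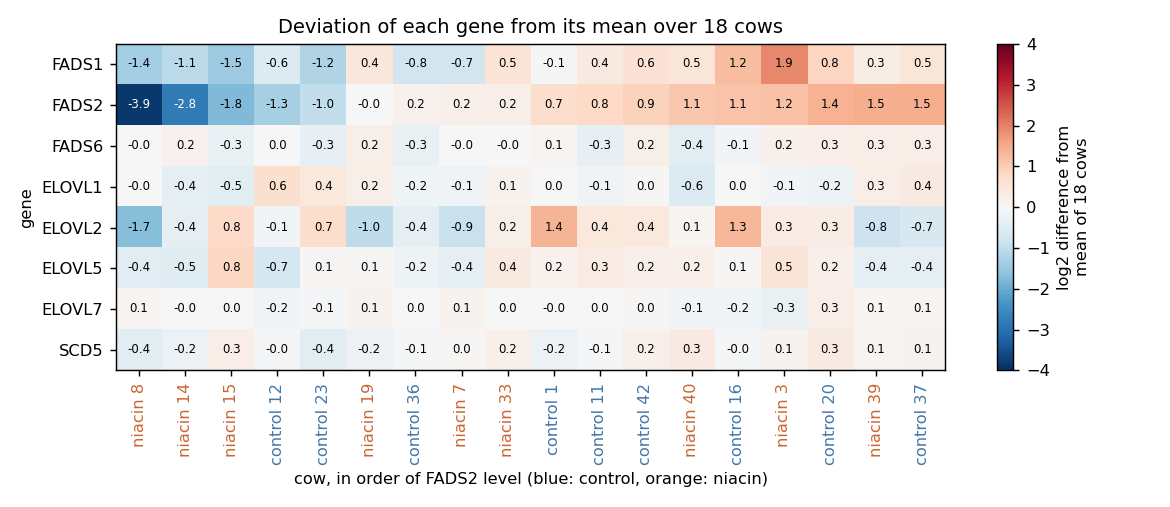
Deviation of each gene from its own mean over 18 cows, on the log2 scale (colour and printed number), with cows in order of their FADS2 level. The low FADS2 cows on the left, niacin 8, 14 and 15 and control 12 and 23, are also below the mean for FADS1, whereas ELOVL2 follows another order of cows.

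Niacin feeding was compared with control for each gene by limma, with p-values adjusted over all 18250 probe sets tested. ELOVL2 had the smallest p of the members, with a mean of 6.10 ± 0.79 in niacin cows against 6.86 ± 0.69 in control cows (SD, n = 9 each). The log2 difference was -0.76 ± 0.31 (SE), or 0.591 of the control level, with a 95% interval of -1.39 to -0.12. At an unadjusted limma p of 0.0216 and an exact permutation p of 0.0463 it did not pass after adjustment, where the limma p was 0.576. Of the 9 niacin cows, 8 had less than the median control cow, and 4 of these had less than every control cow. Without niacin 8 the log2 difference was -0.59 with an unadjusted limma p of 0.0501, and on leaving out each of the other arrays in turn the p stayed under 0.05.

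In the same cows, transcripts of leukocytes in the biopsy were on the higher side. Of 40 tested markers of macrophages, neutrophils, T and NK cells and B and plasma cells, 34 had a positive difference with niacin and 6 a negative one, where 53.8% of all probe sets had a positive one. Their mean log2 level ran from 6.41 to 6.78 in control and from 6.60 to 7.01 in niacin cows. No leukocyte marker gene passed after adjustment by limma, while at an unadjusted p under 0.05 there were 11 higher and 0 lower ones, where 3.34% and 4.41% of all probe sets were, among them TYROBP (0.50), S100A12 (0.94, or 0.61 without niacin 8) and CCL5 (0.32). MMP8 and GZMA were below the limit on dim probe sets. With the leukocyte marker mean as a covariate the ELOVL2 difference was -0.39, with an unadjusted limma p of 0.261, and the part of these cells in the difference was not tested further. Across the 18 cows ELOVL2 and the leukocyte mean correlated at r = -0.57, but at -0.24 without control 1 and niacin 8.

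No other member had a 95% interval that excluded 0. Of the members FADS2 had the largest difference, -0.96 ± 0.62 (SE), with means of 10.15 ± 1.89 and 11.11 ± 1.00 (SD, n = 9 each) and a 95% interval from -2.25 to 0.33. This corresponds to between 0.210 and 1.25 of the control level, so the data left a wide range. The unadjusted limma p of FADS2 was 0.135 and the exact permutation p 0.202, and without niacin 8 the difference was -0.54. With the leukocyte marker mean as a covariate the FADS2 difference was -0.68, with an unadjusted limma p of 0.369. For FADS1 the difference was -0.20, with a 95% interval of -1.03 to 0.63, and it was -0.03 without niacin 15 and -0.45 without niacin 3. With the leukocyte covariate the FADS1 difference was -0.34. ELOVL1 had a difference of -0.22 (95% interval -0.49 to 0.05; exact permutation p = 0.140).

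ELOVL5, FADS6 and SCD5 had differences close to 0. The ELOVL5 difference was 0.06 (95% interval -0.30 to 0.42), that of FADS6 0.03 (-0.20 to 0.26) and that of SCD5 0.05 (-0.18 to 0.28). The sign was not settled for any of them, since each interval included 0. ELOVL5 was at -0.04 without niacin 15 and FADS6 at -0.01 without control 23, while SCD5 was at 0.004 without control 23. With the leukocyte covariate ELOVL5 was at 0.23. ELOVL7, fitted without the limit on dim probe sets, had a difference of 0.01.

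By limma, 0 of the 7 tested members passed an adjusted p of 0.05, as did 0% of all probe sets tested. At an unadjusted p under 0.05, 1 of the 7 was lower with niacin (ELOVL2) against a background of 4.41% of probe sets, and 0 were higher against 3.34%, or 1 of 7 in either direction against 7.74%. By sign alone, 3 of the 7 were above 0 and 4 below, beside 53.8% and 46.2% of all probe sets. The exact permutation test over all 48620 splits of the cows also gave 0 calls once adjusted. Unadjusted, its p was under 0.05 for 1 of the 7 (ELOVL2) against 7.53% of probe sets.

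**Figure D3:**
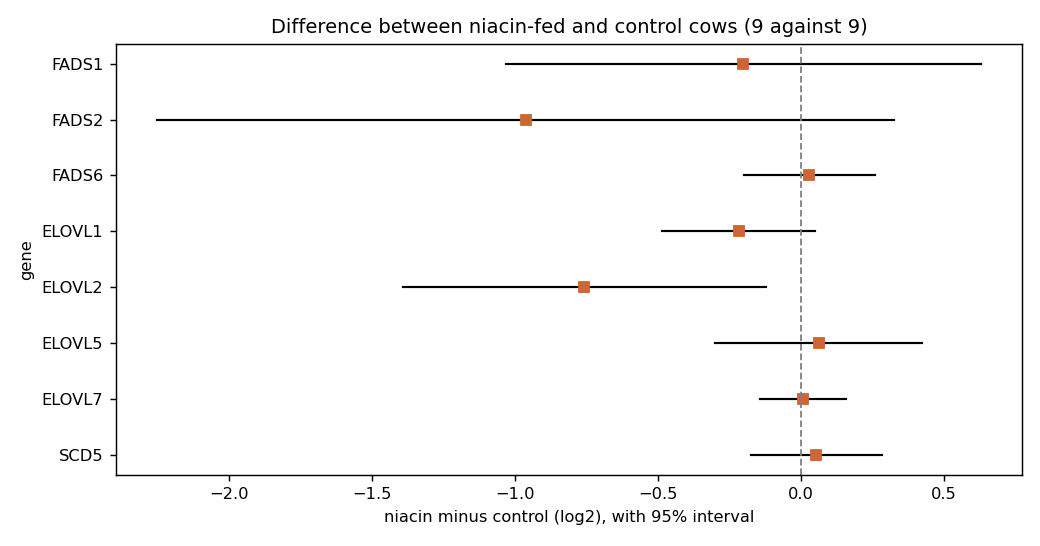
Difference in mean log2 expression between niacin and control cows (squares, 9 cows against 9) with limma's 95% interval (lines). The interval of ELOVL2, -1.39 to -0.12, is the single one that excludes 0, and that of FADS2 is the widest.

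Across cows, the desaturases FADS1 and FADS2 varied together. Their Pearson correlation over the 18 cows was r = 0.79 (permutation p = 3e-05, adjusted p = 0.00084 over the 28 pairs of members) and Spearman's rho was 0.78 (permutation p = 0.00021, adjusted p = 0.00588). Within the control cows r was 0.84 (exact permutation p = 0.00397) and within the niacin cows 0.80 (exact permutation p = 0.00853), and with group means subtracted it was 0.80 over all cows. Neither within-group value passed an adjustment over 28 pairs (adjusted p = 0.111 and 0.0994, exact permutation). Without niacin 8 and niacin 15, the cows farthest from the FADS1 median, r was 0.73, and on leaving out each array in turn it stayed between 0.77 and 0.82. Of the 5 lowest cows for each gene, 4 were shared. Among 14486 other genes tested, 0.469% had an r of at least 0.7 with FADS1 and 0.594% with FADS2, while 0.117% and 0.49% had one of -0.7 or below. At least the r of the pair was reached with FADS1 by 14 genes, FADS2 included, and with FADS2 by 31 genes, FADS1 included.

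FADS1 and FADS2 lie next to each other in the RefSeq gene order of the cattle assembly ARS-UCD2.0, followed by FADS3, another member of the cluster. FADS3 had r = 0.08 to FADS1 and 0.01 to FADS2. Its mean level was 5.17 and its SD 0.22 in control and 0.17 in niacin cows. This was near the median SD within groups of all probe sets tested, 0.20, and below the SDs of FADS1 and FADS2. How far this spread limits its r was not tested. The other genes beside the pair, chosen after the r of FADS1 and FADS2 was known, correlated with them at -0.19 and -0.38 (TMEM258), 0.19 and -0.01 (FEN1) and 0.06 and 0.20 (RAB3IL1), in the order FADS1, FADS2. These values describe 18 cows and carry no test. Whether the FADS1 and FADS2 probe sets bind each other's transcripts was not tested.

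The elongases ELOVL2 and ELOVL5 had the next highest r, which did not pass the adjustment over all 18 cows. It did pass with each group's mean subtracted, and without control 12, the leave-out with the highest r. Over the 18 cows r was 0.61 (permutation p = 0.00728, adjusted p = 0.102) and rho 0.61 (permutation p = 0.00809, adjusted p = 0.113). With group means subtracted r was 0.74 (permutation p = 0.00051, adjusted p = 0.00714). Permutations of centred values, here and below, shuffled all 18 cows and were not kept within groups. Within niacin cows r was 0.83 (exact permutation p = 0.00724) and within control cows 0.61 (exact permutation p = 0.0814). It was 0.60 without control 1 and niacin 8, the cows farthest from the ELOVL2 median, and 0.67 without control 12 (permutation p = 0.00351, adjusted p = 0.0491). On leaving out each array in turn r ran from 0.58 to 0.67.

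**Figure D4:**
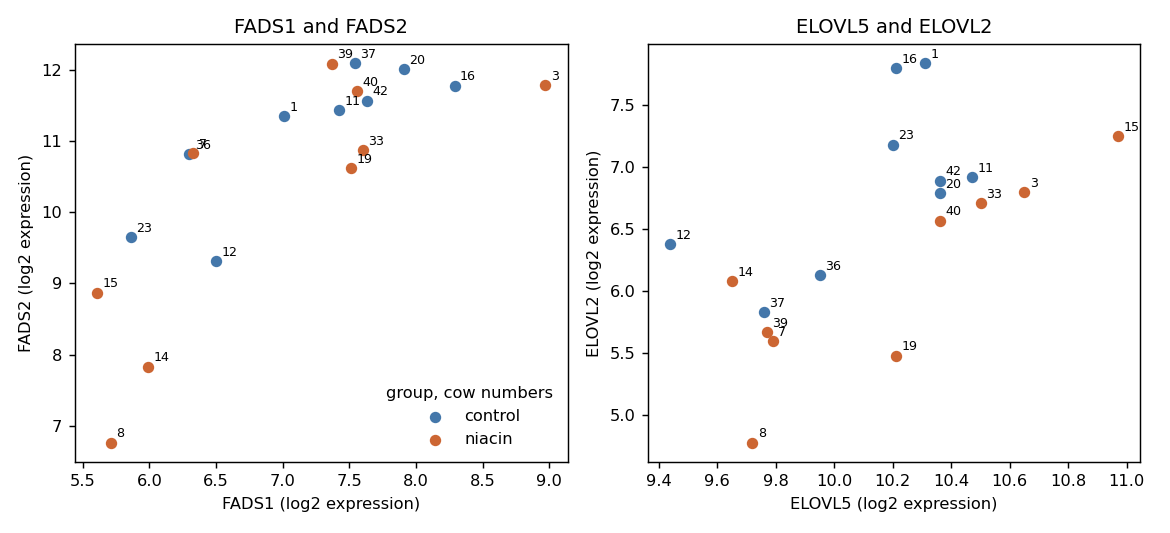
Log2 expression of FADS2 against FADS1 (left) and of ELOVL2 against ELOVL5 (right) in 18 cows, control in blue and niacin in orange, each point with its cow number. FADS1 and FADS2 rise together (r = 0.79), as do ELOVL5 and ELOVL2 with more scatter (r = 0.61).

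SCD5 was related to the desaturase pair more loosely. Its r was 0.57 with FADS2 (permutation p = 0.0134, adjusted p = 0.125; rho 0.55, permutation p = 0.0210, adjusted p = 0.128) and 0.48 with FADS1 (permutation p = 0.0437, adjusted p = 0.306; rho 0.53, permutation p = 0.0274, adjusted p = 0.128). With group means subtracted, the r of SCD5 and FADS2 was 0.64 (permutation p = 0.0044, adjusted p = 0.0411). The relation with FADS2 depended on single low cows, in both directions. Its r was 0.31 without niacin 8 and niacin 14, the cows farthest from the FADS2 median. Without niacin 8 alone it was 0.42, and without niacin 15, also low for FADS2, it was 0.70. The r of SCD5 with FADS1 was 0.59 without niacin 8 and niacin 15, but 0.25 without control 23 and niacin 8, the cows farthest from the SCD5 median. On leaving out each array in turn it ran from 0.39 without niacin 8 to 0.66 without niacin 15.

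Some pairs had different values in the 2 groups. FADS6 and SCD5 correlated at 0.74 in control and -0.53 in niacin cows (exact permutation p = 0.0193 and 0.141), and at 0.09 over all cows. ELOVL2 and SCD5 correlated at -0.37 in control and 0.80 in niacin cows (exact permutation p = 0.332 and 0.0106). FADS6 and ELOVL1 correlated at 0.07 and 0.74 (exact permutation p = 0.849 and 0.0229), and ELOVL1 and ELOVL5 at -0.72 and -0.28 (exact permutation p = 0.0263 and 0.458), control before niacin. None of these passed an adjustment over the 28 pairs, and the difference between the groups was not tested. Over all cows, 24 of the 28 pairs had an unadjusted permutation p of 0.05 or more, with r between -0.45 and 0.41, and 19 pairs had the same sign in both groups. Single cows moved some of these. FADS1 and ELOVL5 correlated at 0.33, or 0.66 without niacin 15 and 0.21 without niacin 3. FADS2 and ELOVL5 correlated at 0.29, or 0.53 without niacin 15 and 0.17 without niacin 8. The 7 pairs of the dim ELOVL7 lay between -0.44 and 0.30.

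**Figure D5:**
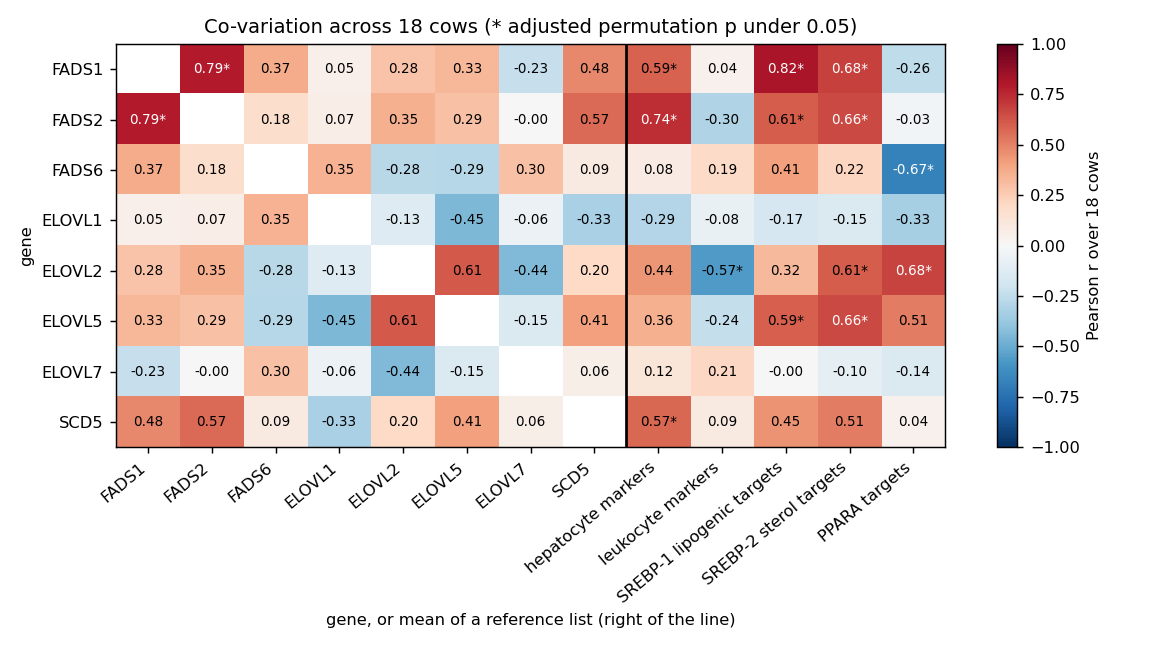
Pearson r over 18 cows between the 8 genes (left of the line) and between each gene and the mean of a reference list (right), with asterisks for an adjusted permutation p under 0.05. The FADS1 and FADS2 square at 0.79 is the single marked pair of members, and FADS6 and ELOVL2 have opposite signs with PPARA targets, at -0.67 and 0.68.

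Each member was then compared with 5 per-cow means over other genes, giving 40 relations, of which 13 passed an adjusted permutation p of 0.05. FADS1 followed the SREBP-1 lipogenic targets, a list of 10 tested genes of fatty acid and glycerolipid metabolism, with r = 0.82 (permutation p = 4e-05, adjusted p = 0.0016) and rho = 0.82 (permutation p = 9e-05, adjusted p = 0.0036). The r was 0.83 in control and 0.84 in niacin cows (exact permutation p = 0.00619 and 0.00402). It was 0.86 without niacin 8 and niacin 15 and 0.76 without niacin 3. Of the 10 genes, 9 correlated positively with FADS1, with a median r of 0.62. Among them the acetyl-CoA synthetase gene ACSS2 was at 0.79, the desaturase SCD at 0.73 and fatty acid synthase, FASN, at 0.72. FADS1 also followed the 12 tested SREBP-2 targets of sterol synthesis, with r = 0.68 (permutation p = 0.00183, adjusted p = 0.0175; rho 0.68, permutation p = 0.00228, adjusted p = 0.0135) and 0.80 without niacin 8 and niacin 15. The transcript of SREBF1, the gene of SREBP-1, was at r = 0.18 with FADS1, 0.06 with FADS2 and 0.25 with ELOVL5. That of SREBF2, the gene of SREBP-2, was at 0.72, 0.63 and 0.44 in the same order, without a test.

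FADS2 was most closely tied to the hepatocyte marker mean, with r = 0.74 (permutation p = 0.00053, adjusted p = 0.0106) and rho = 0.73 (permutation p = 0.00078, adjusted p = 0.0104). The r was 0.95 in control and 0.67 in niacin cows (exact permutation p = 0.000807 and 0.0519), and 0.77 without niacin 8 and niacin 14. The marker mean itself varied little, with an SD of 0.10 in control and 0.08 in niacin cows. Of the 10 markers, APOA2 (0.73) and TTR (0.71) had the highest r with FADS2, while the fibrinogen gene FGB was the single negative one, at -0.66. FADS2 and the leukocyte marker mean correlated at r = -0.30 (permutation p = 0.23, adjusted p = 0.414). Single markers of other cell types lay from -0.80 (S100A8, neutrophil) and -0.77 (HBA, red cell) to 0.68 (MARCO, macrophage), given without a test. With SREBP-1 targets the r of FADS2 was 0.61 (permutation p = 0.00727, adjusted p = 0.0323; rho 0.63, permutation p = 0.00641, adjusted p = 0.0285) and 0.53 without niacin 8 and niacin 14, and the call was lost on leaving out 3 of the 18 arrays. With SREBP-2 targets it was 0.66 (permutation p = 0.00307, adjusted p = 0.0175; rho 0.51, permutation p = 0.0334, adjusted p = 0.111). This last relation rested on niacin 8 and niacin 14, without which r was 0.34, although all 12 genes correlated positively with FADS2, from 0.24 to 0.90. Within control cows the r of FADS2 was 0.85 with SREBP-1 and 0.79 with SREBP-2 targets (exact permutation p = 0.0021 and 0.0110). Within niacin cows these were 0.58 and 0.59 (exact permutation p = 0.0989 and 0.0906).

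The pair of FADS1 and FADS2 shared part of its variation with these lists. With the hepatocyte marker mean regressed out of both, their r was 0.65 (permutation p = 0.00342, adjusted p = 0.0958). With the SREBP-1 target mean regressed out, an alternative chosen after the data were seen, it was 0.64 (permutation p = 0.00368, adjusted p = 0.0515). With the leukocyte marker mean regressed out it was 0.84. FADS1 also correlated with the hepatocyte mean (r = 0.59, permutation p = 0.0104, adjusted p = 0.0380; rho 0.70, permutation p = 0.00161, adjusted p = 0.0135), at 0.51 without niacin 8 and niacin 15. Within control cows r was 0.80 and within niacin cows 0.43 (exact permutation p = 0.00625 and 0.244), and the call was lost on leaving out 10 of the 18 arrays, one at a time.

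ELOVL2 followed the 14 tested PPARA targets, genes of fatty acid oxidation and fasting, with r = 0.68 (permutation p = 0.0023, adjusted p = 0.0175) and rho = 0.74 (permutation p = 0.00071, adjusted p = 0.0104). The r was 0.83 in control and 0.52 in niacin cows (exact permutation p = 0.00501 and 0.156), and 0.69 without control 1 and niacin 8. Of the 14 genes, 12 correlated positively with ELOVL2, led at 0.74 by CPT1A, the gate of mitochondrial fatty acid uptake. FADS1 and FADS2 had r of -0.26 and -0.03 with the same mean. The PPARA transcript itself was at r = -0.27 with ELOVL2 and 0.04 with FADS6, without a test. ELOVL2 also followed the SREBP-2 targets (r = 0.61, permutation p = 0.0072, adjusted p = 0.0323; rho 0.48, permutation p = 0.0423, adjusted p = 0.121), but r was 0.43 without control 1 and niacin 8, and the call was lost on leaving out 4 of the 18 arrays. For its relation with the leukocyte marker mean given above, the permutation p was 0.0144 and the adjusted p 0.0444, with rho at -0.55 (permutation p = 0.0213, adjusted p = 0.0844). That call was lost on leaving out 11 of the 18 arrays.

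ELOVL5 followed the SREBP-2 targets with r = 0.66 (permutation p = 0.00288, adjusted p = 0.0175; rho 0.69, permutation p = 0.00203, adjusted p = 0.0135) and the SREBP-1 targets with r = 0.60 (permutation p = 0.00897, adjusted p = 0.0359; rho 0.63, permutation p = 0.00573, adjusted p = 0.0285). Without control 12 and niacin 15 these were 0.64 and 0.66. The r with SREBP-2 targets was 0.58 in control and 0.75 in niacin cows (exact permutation p = 0.103 and 0.0189). With SREBP-1 targets it was 0.57 in control and 0.63 in niacin cows (exact permutation p = 0.111 and 0.0730). The call with SREBP-1 targets was lost on leaving out 7 of the 18 arrays, with r down to 0.52 without control 12. With the PPARA targets r was 0.51 (permutation p = 0.0311, adjusted p = 0.0829). All 12 sterol genes and all 10 lipogenic genes correlated positively with ELOVL5, with medians of 0.61 and 0.44. The sterol genes FDFT1 (0.77) and CYP51A1 (0.73) had the highest r.

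FADS6 ran against the PPARA targets, with r = -0.67 (permutation p = 0.00276, adjusted p = 0.0175) and rho = -0.68 (permutation p = 0.00237, adjusted p = 0.0135). The r was -0.53 in control and -0.82 in niacin cows (exact permutation p = 0.135 and 0.00643), and -0.69 without control 23 and niacin 40. Of the 14 genes, 12 correlated negatively with FADS6, with a median of -0.58, among them ACADVL at -0.72 and HADHA at -0.64, both enzymes of mitochondrial fatty acid oxidation. SCD5 followed the hepatocyte mean (r = 0.57, permutation p = 0.0131, adjusted p = 0.0438; rho 0.53, permutation p = 0.0232, adjusted p = 0.0844), which rested on control 23 and niacin 8, without which r was 0.40, and the call was lost on leaving out 11 of the 18 arrays. ELOVL1 had no relation past the adjustment, with r from -0.33 to -0.08 over the 5 means, and neither had ELOVL7, from -0.14 to 0.21.

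The genes most like each tested member were taken as the 5 with the highest r over the 18 cows after each group's mean was subtracted. These r values are a description, picked as the highest among all tested genes and so high by selection. FADS1 was followed most closely by RDH11, a retinal reductase gene (0.90), then by the scaffold gene NHERF2 (0.85), CSAD, an enzyme gene of taurine synthesis (0.84), the spindle gene SPAG5 (0.84) and TMPRSS6, whose protease lowers hepcidin (0.84). For FADS2 they were CYP8B1, the sterol hydroxylase that sets the cholic acid share of bile acids (0.92), the sterol synthesis gene MSMO1 (0.89), HOGA1 of hydroxyproline breakdown (0.89), TMPRSS6 (0.88) and RCN1 (0.88). TMPRSS6 was thus on both lists, and MSMO1 is also one of the SREBP-2 targets used above. The lowest r was that of ZNF782 for FADS1 (-0.84) and of the ribosome export gene NMD3 for FADS2 (-0.86).

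ELOVL2 was most like MPC1, a subunit of the mitochondrial pyruvate carrier (0.92), the mitochondrial chaperone gene DNAJA3 (0.92), UBE2G2 (0.85), the glutamate transporter gene SLC1A2 (0.84) and POP7 (0.84). ELOVL5 was most like SLC35E2B (0.86), SLC27A2, a very long-chain acyl-CoA synthetase gene (0.86), LPCAT3, which places polyunsaturated chains in phospholipids (0.85), OGDH of the citric acid cycle (0.85) and the receptor gene CMKLR2 (0.83). The lowest r was that of COL28A1 for ELOVL2 (-0.80) and OR2F1 for ELOVL5 (-0.87).

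FADS6 was most like ABCG5 (0.85) and ABCG8 (0.84), whose products form the sterol exporter of the bile canaliculus, then RARG (0.81), PSRC1 (0.78) and LRRC14 (0.77), and least like the apolipoprotein gene APOA4 (-0.79). SCD5 was most like ZNF580 (0.84), KLK7 (0.83), BOP1 (0.83), SPEF1 (0.82) and IGSF9 (0.81), and least like DDIT3, a stress transcription factor (-0.85). ELOVL1 was most like SRRM2 (0.89), MIR2461 (0.87), PNN (0.86), TNS2 (0.86) and ACIN1 (0.86), of which SRRM2, PNN and ACIN1 encode nuclear proteins of RNA splicing, and least like LOC511386 (-0.86). ELOVL1 also had the largest share of genes with an r of at least 0.7 over all cows, 1.37%, against 0.428% for ELOVL2, 0.345% for ELOVL5, 0.373% for SCD5 and 0.104% for FADS6. The shares with an r of -0.7 or below were 0.532% for ELOVL1, 0.145% for ELOVL2, 0.0621% for ELOVL5, 0.38% for SCD5 and 0.0621% for FADS6.

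The other genes of the pathway gave few calls between niacin and control cows. Over 9 lists with 106 different genes tested, 0 passed an adjusted limma p of 0.05. At an unadjusted p under 0.05, 1 was higher and 2 were lower, that is 0.943% and 1.89%, where 3.34% and 4.41% of all probe sets tested were. Their median log2 difference was -0.01, beside 0.01 over all probe sets tested. The lower ones were CYB5A (-0.23 ± 0.07, SE; exact permutation p = 0.00337, adjusted limma p = 0.475), the cytochrome b5 that passes electrons to the desaturases, and ACAA1 (-0.15 ± 0.07, SE; exact permutation p = 0.0273, adjusted limma p = 0.639), the peroxisomal thiolase. ACAA1 kept an unadjusted limma p under 0.05 in 6 of 18 leave-outs of 1 array, and lost it with robust variances, with array weights and with the leukocyte covariate (-0.11). CYB5A was at -0.15 with the leukocyte covariate, and then had an unadjusted limma p over 0.05. The higher one was PTGES (0.21 ± 0.07, SE; exact permutation p = 0.00588, adjusted limma p = 0.478), a prostaglandin E synthase.

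By role, 0 of the 3 tested other desaturases and elongases passed even the unadjusted limma p, with FADS3 at 0.14, ELOVL6 at 0.23 and SCD at 0.13, and a median of 0.14. SCD was at -0.03 without control 23, so its sign was not settled. ELOVL6 was at 0.089 without control 12 and FADS3 at 0.070 with array weights. Of 11 elongation cycle and electron donor genes 1 (CYB5A) was lower, with a median of -0.08 and the reductase HSD17B12 at 0.14, or 0.044 without control 12. Of 7 peroxisomal genes 1 (ACAA1) was lower, with a median of -0.05. None of the 15 acyl-CoA and phospholipid genes passed the unadjusted limma p, with a median of 0.07, LPCAT1 at 0.15, ACSL5 at -0.28 and LPCAT3 at 0.08. Without niacin 15 ACSL5 was at -0.15 and LPCAT3 at -0.02. Of 17 genes of fatty acid release and eicosanoid synthesis 1 (PTGES) was higher, with a median of 0.09.

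None of the 20 regulators passed the unadjusted limma p, with a median of -0.01. The glucose-responsive factor gene MLXIPL was at -0.28, SREBF1, which encodes SREBP-1, at 0.22 and PPARA at -0.05. SREBF1 was at 0.13 without control 23 and 0.11 with array weights, and PPARA ran from -0.086 to -0.029 on leaving out arrays. The SREBP-1 targets had a median difference of 0.10, with 8 above and 2 below 0, FASN at 0.10, which was -0.05 without niacin 19, and LPIN1 at -0.48. LPIN1 was at -0.31 without niacin 8 and at -0.039 with the leukocyte covariate. All 12 SREBP-2 targets were below 0, with a median of -0.12, but 0 passed the unadjusted limma p. MSMO1 was at -0.28, or -0.16 without niacin 8, and IDI1 at -0.20, or -0.11 without niacin 8. With the leukocyte covariate they were at -0.11 and -0.079. Of the 14 PPARA targets 12 were below 0, with a median of -0.08, and 1 (ACAA1, shared with the peroxisomal list) was lower at an unadjusted limma p under 0.05. The lowest value of all these lists was that of the fasting hormone gene FGF21 among them, named after its value was seen, at -0.87 ± 0.45 (SE) with a 95% interval of -1.81 to 0.07.

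Other cell types in the biopsies gave these values, to be read against the 3.34% of all probe sets that were higher and 4.41% that were lower at an unadjusted limma p under 0.05. Among hepatocyte markers 1 of 10 was lower at an unadjusted limma p under 0.05 (AHSG, -0.27), with a median of -0.02. The macrophage list had 4 of 13 higher (median 0.25), the neutrophil list 3 of 9 (0.20), the T and NK cell list 3 of 11 (0.11) and the B and plasma cell list 1 of 7 (0.01). None of the 29 tested markers of endothelial, stellate, bile duct, red, fat and skin cells passed the unadjusted limma p, with list medians from -0.06 to 0.38, the highest being that of red cells. None of the marker genes passed after adjustment.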

How the data were processed

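Liver RNA of 18 cows was measured on 18 arrays. The deposited values are on the log2 scale and were made by the authors with Affymetrix Expression Console and RMA, per the submitters' processing notes, which give no version. RMA quantile-normalizes the arrays, which hides a change shared by most genes. The number of arrays limits the precision. The labels' protocols state that the 2 samples of lowest RNA integrity in each group of 11 were left out. They give 7.2 ± 0.5 (SD) over the 18 samples and no value per cow.

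Of 24333 probe sets, 18457 had 1 gene symbol, 688 several and 5188 none, and 17996 matched a RefSeq gene by ID, which changed 0 symbols. Groups were taken from the sample titles. Differences were fitted with limma 3.58.1 in R 4.3.3 (lmFit, eBayes, no covariate, two-sided, Benjamini-Hochberg over 18250 probe sets). Single genes were also tested by the exact two-sided permutation test. Correlations over 18 cows used 100000 resamples, two-sided, and those within a group of 9 all 362880 orders. They were adjusted over the 28 pairs or the 40 relations. A gene with several probe sets was represented by the brightest. Scripts were tested on simulated data.

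The members, lists and the rule for named genes were chosen with earlier results of these data known. Named genes were the members, the 5 most like and the 1 least like each, from each pathway list up to 4 genes with an unadjusted p under 0.05 or, where it had none, its 2 genes of smallest p, and some pathway genes fixed by name. Genes of correlation lists named for their r, and the leukocyte marker S100A12, were chosen after their values were seen. Of the cell type lists, only genes that bear on a result are named. Alternatives covered filters, variances, weights, scaling, gene span, covariates and leaving out each array. The labels gave no array batch. Separate cows are the replicates.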

Additional observations from a re-analysis of the deposited data

Results flagged for a closer look

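In 4 of 66 groups of 9 values, 1 cow stood apart from the rest of its group by more than chance gives in about 1 of 20 groups, or 3.3 of 66, if values are normally distributed. None of the 4 concerned one of the 8 desaturase and elongase genes themselves. Niacin 3 was the highest niacin cow for the elongase gene ELOVL6, at 8.60 with the nearest at 7.89. It was also the highest for the elongation cycle gene HSD17B12, at 8.40 with the nearest at 7.77, and it was the cow with the highest FADS1. Control 12 was the lowest control cow for ACSL5, at 10.12 with the nearest at 10.66, and had the lowest FADS2 of the control cows. Niacin 8 was the highest niacin cow for the neutrophil gene S100A12, at 9.32 with the nearest at 7.26, and had the lowest FADS2 and ELOVL2 of all cows.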

How the results depend on the processing

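The count of probe sets past an adjusted p of 0.05 was 0 under every filter, scaling, weight, covariate and test run, and 0 to 1 on leaving out each array (1 without niacin 39). The number of probe sets at an unadjusted p under 0.05, 1413, became 809 with the leukocyte marker mean as a covariate, and 1100 to 1732 on leaving out arrays. Members past an adjusted p stayed at 0 throughout. The leukocyte covariate turned FADS6 to -0.025 and FASN to -0.063, and array weights turned SCD to -0.016. On leaving out arrays FADS6 ran from -0.0090 to 0.085, ELOVL5 from -0.037 to 0.13, SCD from -0.034 to 0.26, FASN from -0.052 to 0.25 and LPCAT3 from -0.020 to 0.14. The cause was not tested. ELOVL2 kept its sign everywhere, from -0.90 to -0.59 on leaving out arrays, with an unadjusted p of 0.00600 to 0.0501.

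The 1 pair of members past the adjustment became 3 with group means subtracted and 0 with the hepatocyte marker mean regressed out, and 1 to 4 on leaving out arrays (2 without control 12, 4 without niacin 15). The r of FADS6 and SCD5 was -0.12 with the SREBP-1 target mean regressed out and ran from -0.076 to 0.30 on leaving out arrays. That of ELOVL2 and SCD5 was -0.075 with the hepatocyte mean regressed out and ran from -0.038 to 0.34. The 13 relations with reference means became 8 after a further quantile normalization, 7 without the 2 cows farthest from the median and 6 to 13 on leaving out arrays (8 without niacin 7, 6 without niacin 8, 7 without niacin 14). The most-like genes kept an r of at least 0.7 in size under the 3 scaling alternatives. A second probe set per member was not tried, since each had 1. No paired analysis was possible because the cow numbers of the groups do not overlap.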

Other observations

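Within the PPARA target list, FADS2 had r values of both signs over the 18 cows, so that its r of -0.03 with the list's mean does not describe the single genes. FABP1, which encodes the liver fatty acid-binding protein, was at 0.84 and VNN1, a pantetheinase gene, at 0.82, while ANGPTL4, an inhibitor of lipoprotein lipase, was at -0.64 and PLIN2, a lipid droplet coat gene, at -0.57. FADS1 had the same signs with these genes, at 0.69 (FABP1), 0.63 (VNN1), -0.64 (ANGPTL4) and -0.55 (PLIN2). ELOVL2 was at -0.04 with both FABP1 and VNN1. These genes were chosen after their values were seen, and the values are given without a test.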
